A study of Mus musculus with 15 samples.

Results

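Heat shock proteins and DnaJ co-chaperones were followed in the hearts of 15 C57BL/6 mice, 1 mouse to an array. The set was chosen by gene name. It held every probe whose accession matched a gene of the Hspa, Hspb, Hspd, Hspe or Hsph names, the cytosolic Hsp90 genes, or a numbered Dnaja, Dnajb or Dnajc gene, plus the heat shock regulators Hsf1 and Bag3. The endoplasmic reticulum chaperones Hspa5, Hsp90b1, Dnajb9, Dnajb11 and Dnajc3 were left out. This gave 68 genes of the 18531 genes named on the array, measured by 111 of 41174 probes. Of these, 106 probes for 65 genes passed the filter on dim probes (signal well above background on 3 or more of the 15 arrays) and were tested. The other 3 genes, Dnajb7, Dnajb13 and Dnajc5g, were not tested.

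The mice were 8 to 10 weeks old at the start. Females and males received weekly intraperitoneal injections of methamphetamine hydrochloride (meth) dissolved in phosphate-buffered saline (PBS), or PBS alone. Over 20 weeks the weekly meth dose climbed in steps of 2 mg and reached 40 mg/kg, and hearts were taken after 5 months. The paper reports early deaths among the males given meth and in no other group. It proposes that the males that died may have had worse heart function, and adds that this cannot be proved. The male meth hearts thus came from survivors of a group that had lost mice, and the female meth hearts did not. Whether this loss affected the differences between the sexes was not tested. The arrays covered 4 females given meth, 3 females given PBS, 4 males given meth and 4 males given PBS. The males came from 2 trials, with 2 mice of each treatment in each trial. The arrays lay on 4 slides. Slides 1 and 2 each held 1 array of every group, slide 3 held the males of trial 2, and slide 4 held 2 females given meth and 1 given PBS. One label field places the 3 females of slide 4 in trial 2, and their titles do not.

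Heat shock proteins keep other proteins folded. The HSP70 family binds unfolded stretches and releases them in an ATP-driven cycle, DnaJ (HSP40) co-chaperones deliver clients to HSP70 and stimulate its ATPase, and HSP110 proteins exchange the nucleotide. HSP90 acts late in folding, the chaperonin of Hspd1 and Hspe1 folds proteins inside mitochondria, and small heat shock proteins hold unfolded clients. When unfolded proteins accumulate, heat shock factor 1 (HSF1) switches on the inducible members through heat shock elements, repeats of the letters GAA in alternating orientation. In heart muscle, Bag3 and several small heat shock proteins are known for the upkeep of the contractile filaments.

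Levels are log2 signals relative to the 75th percentile of all non-control probes of the same array, so a gene at 0 lay at that percentile. A difference of 1 on this scale is a 2-fold difference in signal. That percentile corresponded to a signal of 307 to 589, and 61.3% to 71.4% of probes were well above background. A gene is given by its brightest probe unless another is named. Levels of different probes were not set against each other. Differences between groups are log2 fold changes from 1 limma fit over all 28358 probes tested, with p-values adjusted by Benjamini-Hochberg over all of them and a threshold of 0.05. All 7 cardiomyocyte markers were well above background on every array, and the level of Xist matched the labelled sex on 15 of 15 arrays. These are bulk heart samples, in which fewer cells of a type and less RNA per cell cannot be told apart.

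The promoters of the genes that carried the main difference are shown first, because Hspa1a and Hspa1b are near-identical copies and because heat shock elements are known from such promoters. The sequences are the 150 bases before the annotated transcription start in RefSeq, build GRCm38.p6, written 5′ to 3′ along the gene, with matches to GAANNTTC or TTCNNGAA in capitals. Each of these motifs is its own reverse complement, so both strands were covered. The Hspe1 promoter is added as that of a classical heat shock target which did not pass the test in either sex. Hspa1a and Hspa1b lie on the minus strand of chromosome 17, Dnaja1 on the plus strand of chromosome 4 and Hspe1 on the plus strand of chromosome 1.
Hspa1a (chr17:34972157-34972306): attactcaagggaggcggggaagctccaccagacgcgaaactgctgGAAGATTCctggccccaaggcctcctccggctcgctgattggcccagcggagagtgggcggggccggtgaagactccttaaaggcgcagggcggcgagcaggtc
Hspa1b (chr17:34959239-34959388): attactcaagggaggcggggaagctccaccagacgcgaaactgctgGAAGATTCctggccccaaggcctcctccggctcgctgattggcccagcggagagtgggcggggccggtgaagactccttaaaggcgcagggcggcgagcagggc
Dnaja1 (chr4:40722318-40722467): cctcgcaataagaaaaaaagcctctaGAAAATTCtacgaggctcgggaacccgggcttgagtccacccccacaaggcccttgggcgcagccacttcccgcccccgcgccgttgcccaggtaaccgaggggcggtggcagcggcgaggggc
Hspe1 (chr1:55087998-55088147): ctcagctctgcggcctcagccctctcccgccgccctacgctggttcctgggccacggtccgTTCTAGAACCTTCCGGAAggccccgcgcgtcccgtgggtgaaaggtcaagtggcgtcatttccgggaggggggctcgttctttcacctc

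Hspa1a spans chr17:34969359-34972156 and Hspa1b chr17:34956429-34959238. Over the 250 bases before their starts the copies differed at 3 positions. Both held 1 match, GAAGATTC, whose first base lay 104 bases before the start. Dnaja1, at chr4:40722468-40734965, held GAAAATTC 124 bases before the first of its 3 listed starts. Hspe1, at chr1:55088148-55091317, held overlapping matches that begin 89 bases before its start. They formed the longer motifs TTCNNGAANNTTC and GAANNTTCNNGAA, which are each other's reverse complement. Hspd1 starts on the opposite strand of the same stretch and shares these matches.

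Of the 68 member genes, 53 were in the promoter table. A window from 250 bases before to 50 bases after a listed start held GAANNTTC or TTCNNGAA for 17 of the 53 (32.1%), and for 17% of all 27025 genes of the table. One of the longer motifs was present for 4 members (7.55%), Hspd1, Hspe1, Hsph1 and Dnajb6, and for 0.662% of all genes. The windows listed for Dnajb1 held no match.

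In females, 4 genes of the set rose with meth and none fell. These were Hspa1a and Hspa1b, the stress-inducible HSP70 genes, and Dnaja1 and Dnajb1, cytosolic DnaJ co-chaperones of HSP70. In all, 7 of 106 member probes (6.6%) passed the test, all of them higher with meth, against 0.758% of all probes in either direction and 0.205% of all probes called higher. In males, 2 member probes (1.89%) passed, against 1.11% of all probes. They were 1 probe of Hspa2, higher with meth, and 1 probe of Hspa12a, lower with meth. The change in males was lower than that in females by the test of the difference for Hspa1a, Hspa1b and Dnaja1. These 3 genes supplied 6 member probes (5.66%), against 0.138% of all probes. In this comparison 10 probes of the whole array (0.0353%) were called lower in males than in females, and 6 of the 10 were these.

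Hspa1a encodes the main heat-inducible HSP70. Its levels in the 3 female PBS hearts were -0.18, -0.02 and -0.25, and in the 4 female meth hearts 1.49, 1.39, 1.35 and 1.14. Every female meth heart lay above every female PBS heart, and the groups were separated by more than their own ranges. The male PBS hearts gave -0.44, -0.06, -0.03 and -0.16, and the male meth hearts -0.29, -0.25, 0.20 and -0.12. The 2 male groups overlapped each other and the female PBS hearts. The log2 fold change with meth was 1.49 ± 0.12 (SE, n = 4 and 3) in females, a 2.81-fold difference (limma, adjusted p = 0.00014). In males it was 0.06 ± 0.11 (SE, n = 4 and 4, adjusted p = 0.88), with a 95% interval from -0.18 to 0.30. The male change minus the female change was -1.43 ± 0.16 (SE, adjusted p = 0.0040). A second Hspa1a probe gave 1.62 in females (adjusted p = 0.00012), 0.04 in males (adjusted p = 0.93) and -1.58 for the difference (adjusted p = 0.0030).

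Hspa1b, the other inducible HSP70 gene, showed the same order of groups. Its levels were -2.41, -2.59 and -2.53 in female PBS hearts and -1.15, -1.16, -1.06 and -0.76 in female meth hearts. In males they were -2.87, -2.63, -2.43 and -2.54 with PBS and -2.73, -2.81, -1.99 and -2.30 with meth. The female groups did not overlap and the male groups did. The change was 1.48 ± 0.12 (SE) in females (adjusted p = 0.00023) and 0.16 ± 0.12 (SE) in males (adjusted p = 0.60), and the male change minus the female change was -1.32 ± 0.17 (SE, adjusted p = 0.0081). A dimmer Hspa1b probe, well above background on 9 arrays, gave 0.97 in females and did not pass (adjusted p = 0.089). The coding sequences of the copies are nearly the same, so how far each probe reads the other copy is uncertain.

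Dnaja1, a farnesylated DnaJ protein that feeds clients to cytosolic HSP70, was the other gene to differ between the sexes. Female PBS hearts gave 2.26, 2.30 and 2.18, and female meth hearts 3.06, 2.97, 3.10 and 2.98. The male PBS hearts gave 2.09, 2.34, 2.26 and 2.17, and the male meth hearts 1.93, 1.96, 2.21 and 2.14. Again only the female meth hearts stood apart among the 4 groups. The change was 0.78 ± 0.08 (SE) in females, a 1.72-fold difference (adjusted p = 0.0018), and -0.16 ± 0.08 (SE) in males (adjusted p = 0.41). The difference between the sexes was -0.94 ± 0.11 (SE, adjusted p = 0.0057). All 3 Dnaja1 probes passed in females, with changes of 0.69 to 0.85, and all 3 passed for the difference between the sexes, with values from -0.80 to -1.01.

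**Figure D1:**
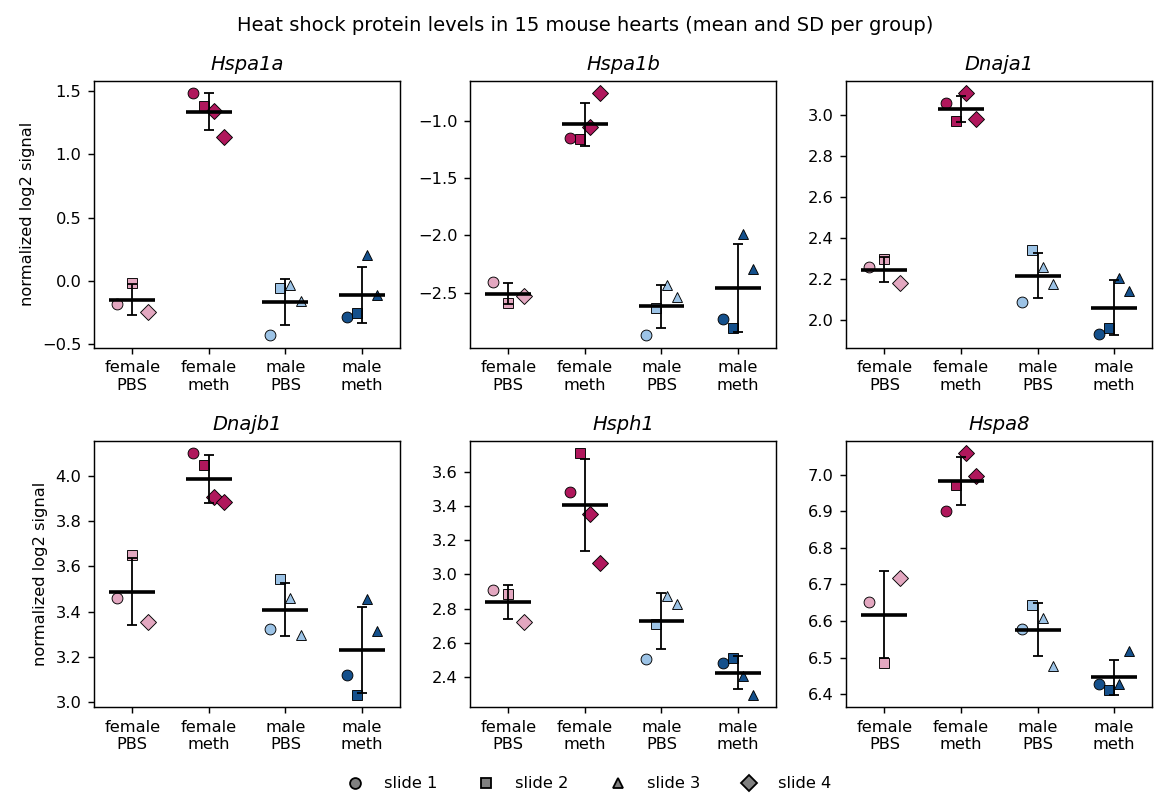
Normalized log2 signal of 6 member genes on each of the 15 arrays, by group, with the group mean and SD as black lines and the slide as the marker shape. The 4 female meth hearts lie above the other 3 groups in every panel, from 1.14 to 1.49 for Hspa1a where no other heart exceeds 0.20.

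Dnajb1, the canonical HSP40 partner of inducible HSP70, passed in females with 1 of its 2 probes. On the probe that passed, the female PBS hearts gave -0.70, -0.46 and -0.57, and the female meth hearts -0.06, -0.16, -0.06 and 0.06. The groups did not overlap, and the change was 0.52 ± 0.10 (SE, adjusted p = 0.036). The brighter probe gave nearly the same change, 0.50 ± 0.11 (SE, adjusted p = 0.062), from 3.46, 3.65 and 3.35 with PBS to 4.10, 4.05, 3.91 and 3.89 with meth. In males the changes of the 2 probes were -0.05 and -0.18, and neither passed (adjusted p = 0.86 and 0.50). The difference between the sexes did not pass for either probe (adjusted p = 0.24 and 0.19).

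A few members came close to the threshold in females. Hspa8, the constitutive HSP70, was at 6.65, 6.48 and 6.72 with PBS and at 6.90, 6.97, 7.06 and 7.0 with meth, a change of 0.36 ± 0.08 (SE, adjusted p = 0.051). Dnajb4, a DnaJ protein of heart and skeletal muscle, was at 3.38, 3.40 and 3.23 with PBS and at 3.71, 3.71, 3.67 and 3.54 with meth, a change of 0.32 ± 0.07 (SE, adjusted p = 0.056). Hsph1, the inducible HSP110, was at 2.91, 2.89 and 2.72 with PBS and at 3.48, 3.71, 3.35 and 3.07 with meth, a change of 0.56 ± 0.14 (SE, adjusted p = 0.091). The groups of each of these 3 genes were separated, but the changes did not pass after adjustment over all probes. In males their changes were -0.13, -0.04 and -0.30 (adjusted p = 0.48, 0.83 and 0.34). The male change minus the female change was -0.49 for Hspa8, -0.36 for Dnajb4 and -0.87 for Hsph1, and none of these passed (adjusted p = 0.14, 0.32 and 0.16). Without female meth replicate 4, the lowest of its group, Hsph1 passed in females (0.68, adjusted p = 0.046) and for the difference between the sexes (-0.98, adjusted p = 0.047). These were the largest of its values with single arrays left out, which ran from 0.46 to 0.68 and from -0.98 to -0.77. Hsph1 did not pass in 28 of 30 alternative analyses in females and in 26 of 28 for the difference. Hspa4l, an HSP110 gene, was the eighth member by p in females, with a change of 0.25 ± 0.09 (SE, adjusted p = 0.29).

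The exact permutation test of 4 meth against 3 PBS hearts gave p = 0.0286 in females for Hspa1a, Hspa1b, Dnaja1, Dnajb1, Hspa8 and Dnajb4, which is the smallest p that these group sizes allow. For Hsph1 the exact permutation p was 0.057. The male meth hearts were all below the female meth hearts for each of these 7 genes. The 7 were the first members by limma p in females on the same arrays. Their permutation p and their separation from the male meth hearts are therefore no separate support. The share of all probes that separate in these ways was not counted.

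Arrays of the same slide were compared next, since slides 3 and 4 each held 1 sex. On slides 1 and 2, which held both sexes, Hspa1a was higher with meth by 1.67 and 1.40 in females and differed by 0.15 and -0.19 in males. Hspa1b differed by 1.26 and 1.43 in females and by 0.14 and -0.17 in males, and Dnaja1 by 0.80 and 0.67 in females and by -0.16 and -0.38 in males. On slide 4 the female differences were 1.49 for Hspa1a, 1.62 for Hspa1b and 0.86 for Dnaja1. On slide 3, with males only, both meth hearts lay above both PBS hearts for Hspa1b, at -1.99 and -2.30 against -2.43 and -2.54. The meth and PBS hearts of slide 3 overlapped for Hspa1a (0.20 and -0.12 against -0.03 and -0.16) and Dnaja1 (2.21 and 2.14 against 2.26 and 2.17). Each slide with females thus gave a female difference well above 0, and the male differences lay on both sides of 0 for the HSP70 copies.

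**Figure D2:**
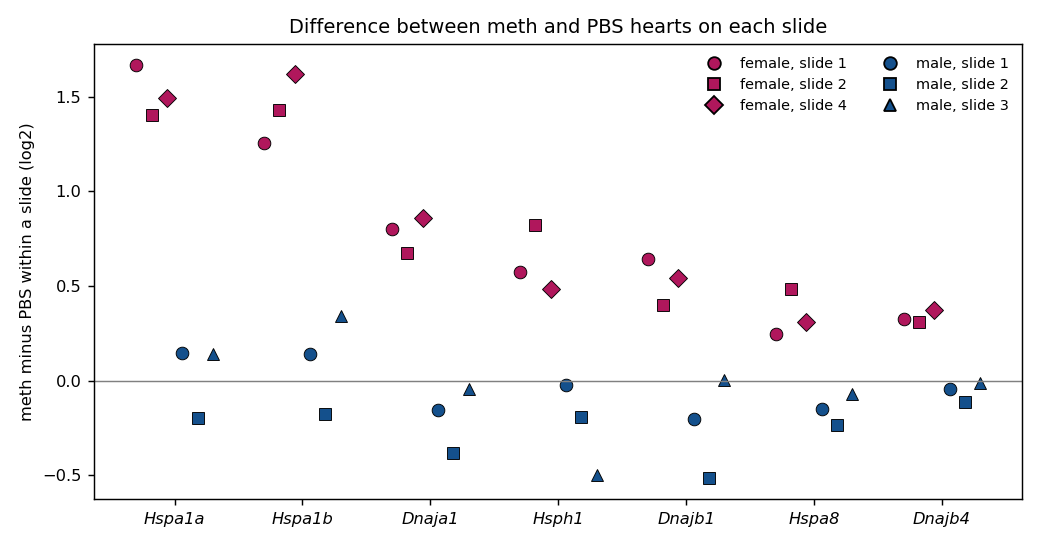
Difference between meth and PBS hearts of the same slide, in log2 units, for 7 member genes, with females in red and males in blue (slide 4 is the mean of 2 meth hearts minus 1 PBS heart, and slide 3 the mean of 2 minus the mean of 2). All female differences are above 0, from 1.40 to 1.67 for Hspa1a, and every male difference of these genes is below the female ones.

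The replicate numbers paired the arrays by slide, and with this number as a block the 6 probes no longer passed for the difference between the sexes. The values were nearly the same, -1.50 for Hspa1a, -1.23 for Hspa1b and -0.96 for Dnaja1, with adjusted p of 0.0502, 0.077 and 0.077, and no probe of the whole array passed in that fit. In females 6 member probes passed with the block, and Dnajb1 was lost (adjusted p = 0.14). The block also takes up female meth replicate 4, which has no PBS partner. Without the 3 arrays of slide 4, a check added after the data were seen, Hspa1a, Hspa1b and Dnaja1 still passed in females, with changes of 1.54, 1.34 and 0.74 (adjusted p = 0.016, 0.031 and 0.042). The difference between the sexes was then -1.48, -1.18 and -0.89 and did not pass (adjusted p = 0.083, 0.12 and 0.10). With trial 1 arrays only, none of the 3 genes passed for the difference by its brightest probe (adjusted p = 0.063 to 0.064), and 1 member probe passed. By the brightest probe, Hspa1b did not pass for the difference without the trial term (adjusted p = 0.069), nor Dnaja1 with normexp (adjusted p = 0.082). When single arrays were left out, the brightest probes of these 3 genes passed each time, in females and for the difference.

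The 2 member probes that passed in males were of other genes than those called in females, and their share was near that of all probes (1.89% against 1.11%). Hspa2, an HSP70 known best from male germ cells, was measured by 2 probes. On the probe that passed, levels were -2.46, -2.54, -2.25 and -2.18 in male PBS hearts and -2.22, -2.09, -1.61 and -1.84 in male meth hearts. The groups overlapped slightly, and the change was 0.42 ± 0.09 (SE, adjusted p = 0.040). The brighter probe gave 0.41 ± 0.11 (SE, adjusted p = 0.11), from -0.70, -0.61, -0.60 and -0.52 with PBS to -0.29, -0.24, -0.04 and -0.23 with meth. In females the 2 probes gave 0.31 and 0.19 (adjusted p = 0.17 and 0.62), and the sexes did not differ by the test (adjusted p = 0.85 and 0.73).

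Hspa12a is a distant HSP70 relative with an atypical ATPase domain. On the probe that passed, the male PBS hearts gave -1.75, -1.78, -1.29 and -1.24 and the male meth hearts -2.06, -2.15, -1.85 and -2.03. All meth hearts were lower than all PBS hearts, and the change was -0.51 ± 0.10 (SE, adjusted p = 0.035). Its brightest probe gave -0.44 ± 0.11 (SE, adjusted p = 0.092) and the remaining probe -0.45 ± 0.37 (SE, adjusted p = 0.66). In females the change of the probe that passed was -0.26 ± 0.11 (SE, adjusted p = 0.40). For this probe the male change minus the female change did not pass, with a 95% interval from -0.58 to 0.07. With the replicate number as a block neither the Hspa2 nor the Hspa12a probe passed in males (adjusted p = 0.099 and 0.082). By trial, the male changes were 0.34 and 0.49 for Hspa2 and -0.34 and -0.68 for Hspa12a in trials 1 and 2, and none passed within a trial. The male count of 2 probes fell to 0 when any 1 of 6 male arrays was left out (meth replicate 2 of trial 1, meth replicate 1 of trial 2, and each of the 4 PBS arrays). It was 1 without the other 2 male meth arrays, female meth replicate 1, or female PBS replicate 1 or 2.

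Among the members next in order in males, Dnajc15, which sits at the import motor of mitochondria, had levels of 5.99, 5.88, 5.66 and 5.73 with PBS and 5.66, 5.60, 5.33 and 5.55 with meth. Its change was -0.28 ± 0.06 (SE, adjusted p = 0.060), and without the second meth heart of trial 2 it was -0.33 (adjusted p = 0.048). With single arrays left out the change ran from -0.33 to -0.24, and it did not pass in 28 of 30 alternative analyses. Dnajc6, the auxilin that uncoats clathrin vesicles, gave 0.52 ± 0.15 (SE, adjusted p = 0.16) but was well above background on 5 arrays only. Hspb3, a muscle small heat shock protein, gave -0.28 ± 0.10 (SE, adjusted p = 0.23). Dnajc11, Dnajc2 and Dnajc21 gave -0.24, -0.22 and -0.16 (adjusted p = 0.26 to 0.32). The PBS and meth ranges of Dnajc15 met at 5.66. Over all 65 genes, by the brightest probe, the male changes ran from -0.44 to 0.52.

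The male meth hearts also carried RNA of airway secretory genes. The summed level of 5 secretory airway markers was 5.03 to 7.39 in male meth hearts and -1.04 to -0.77 in male PBS hearts, and all 5 passed in males. In females it was 0.14 to 1.93 with meth and 0.67 to 1.60 with PBS, and 1 of the 5 passed. The summed level of 9 ciliated airway markers was -1.43 to -0.40 in male meth hearts and -2.16 to -1.80 in the other groups. Of these 9 markers, 4 were bright enough to be tested, and 1, Foxj1, passed in males. In male meth hearts 4 of the 9 were above background on no array. Bpifa1 was above background on no female PBS array, and in male PBS hearts 2 of the secretory and 6 of the ciliated markers were above background on no array. The part of this RNA in the members' values was not tested.

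When the response was averaged over both sexes, 8 member probes of 5 genes passed (7.55%), against 2.65% of all probes. Hspa1a and Hspa1b gave 0.77 ± 0.08 and 0.82 ± 0.08 (SE, adjusted p = 0.00046 for both) and Dnaja1 gave 0.31 ± 0.06 (SE, adjusted p = 0.012). For these genes the mean joins a female change with a male change near 0 or below it. The other calls were the Hspa2 probe, at 0.36 ± 0.06 (SE, adjusted p = 0.011), and the Hspa12a probe, at -0.38 ± 0.08 (SE, adjusted p = 0.019). Both had changes of 1 sign in the 2 sexes. With the replicate block this Hspa2 probe (adjusted p = 0.054) and 1 of the 3 Dnaja1 probes (adjusted p = 0.052) no longer passed, and the brighter Hspa2 probe (adjusted p = 0.043) and Dnajc6 (adjusted p = 0.041) did. Dnajc6, Dnajb4 and Hspb3 were next, at 0.43, 0.14 and -0.20 (adjusted p = 0.067, 0.16 and 0.19).

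The direction of the changes over the set differed between the sexes. In females 79 of 106 member probes (74.5%) had a positive log2 fold change, against 50.2% of all probes, with a median of 0.10 over the members and 0.00065 over all probes. In males 24 of 106 (22.6%) were positive, against 42% of all probes, with medians of -0.08 and -0.03. The male change was lower than the female change for 89 of 106 member probes, with a median difference of -0.16 over the members and -0.02 over all probes. These counts include the many probes that did not pass, several probes of 1 gene, and hearts that share their arrays across all genes, so they describe the set and test nothing. Centring each array on its median in place of its 75th percentile moved the median of the sex difference over all probes from -0.015 to -0.123 and that of the members to -0.265. Both medians thus moved by nearly the same amount. With normexp the medians of the sex difference were -0.137 over the members and -0.087 over all probes, and with quantile normalization -0.11 and -0.018. The gap to all probes in the share of positive values depended on the scaling, most of all in females. There 73.6% of member probes were positive with normexp background correction against 68.4% of all probes, 64.2% against 50.6% with quantile normalization, and 87.7% against 66.6% with median centring. In males the shares were 23.6% against 38.9%, 32.1% against 42.7%, and 19.8% against 35% in the same order.

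**Figure D3:**
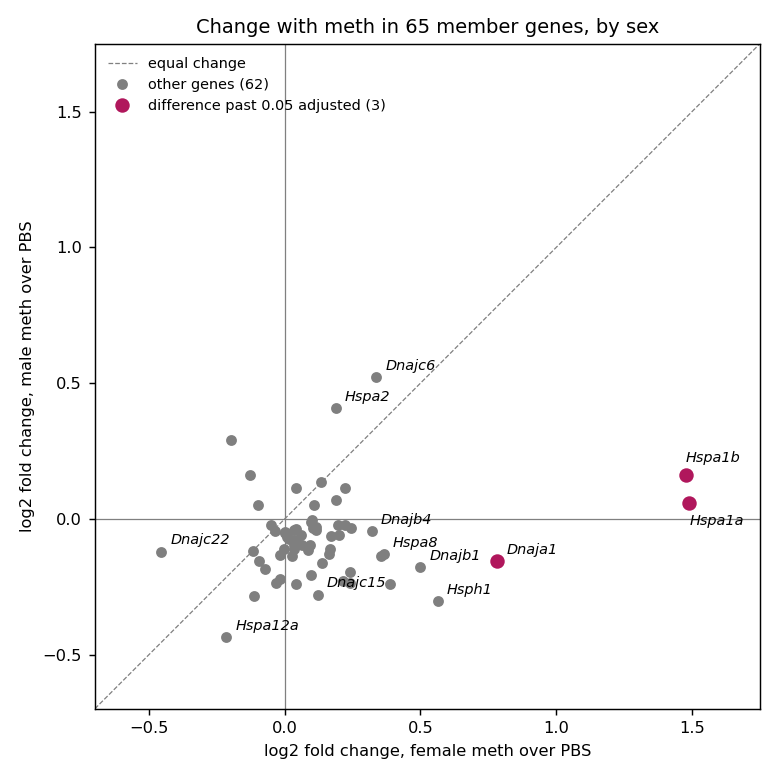
Log2 fold change with meth in females (x axis) and in males (y axis) for the 65 member genes tested, each by its brightest probe, with the dashed line marking equal change. Hspa1a, Hspa1b and Dnaja1 (red) lie far to the right, at 1.49, 1.48 and 0.78 in females and at 0.06, 0.16 and -0.16 in males, and most other genes lie close to 0 in both sexes.

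By role, the 2 regulators did not pass in any comparison. Hsf1, the heat shock factor itself, changed by 0.03 ± 0.11 (SE) in females and -0.14 ± 0.10 (SE) in males (adjusted p = 0.97 and 0.62), and its sign in females turned under quantile normalization (-0.01) and normexp background correction (-0.17). Bag3, an HSP70 co-chaperone of the contractile filaments, changed by 0.09 ± 0.11 (SE) and -0.12 ± 0.10 (SE, adjusted p = 0.86 and 0.68), with -0.006 in females under normexp. In the HSP70 class, 8 of 10 genes had a positive value in females and 4 of 10 in males, which became 7 and 5 under quantile normalization. Hspa1l, whose gene starts next to Hspa1a on the opposite strand, gave 0.39 ± 0.15 (SE) in females and -0.24 ± 0.14 (SE) in males and did not pass (adjusted p = 0.35 and 0.52). All 3 HSP110 genes had positive values in females and negative ones in males.

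The HSP90 and mitochondrial chaperonin genes showed small values. Hsp90aa1, the inducible HSP90, gave 0.24 ± 0.12 (SE) in females and -0.20 ± 0.11 (SE) in males (adjusted p = 0.51 and 0.51). Hsp90ab1, the constitutive form, gave 0.20 ± 0.09 and -0.02 ± 0.08 (SE, adjusted p = 0.45 and 0.95). Neither Hspd1 nor Hspe1, which share the promoter stretch shown above, passed. Whether motif matches went with the changes was not tested. Hspd1 gave 0.10 ± 0.09 in females and -0.21 ± 0.09 in males (SE, adjusted p = 0.79 and 0.33). Hspe1 gave 0.11 ± 0.12 and -0.04 ± 0.11 (SE, adjusted p = 0.83 and 0.92). Quantile normalization turned the sign of Hsp90ab1 (0.05) and Hspe1 (0.02) in males and of Hspd1 (-0.002) in females.

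The small heat shock proteins followed no common direction in females, where 5 of 8 genes were positive, and 7 of 8 were negative in males, against 4 positive and 5 negative under quantile normalization. Hspb1, the HSF1 target of the class, was at 5.80, 5.54 and 5.99 in female PBS hearts and at 5.76, 6.06, 6.47 and 6.23 in female meth hearts. These groups overlapped, and its change was 0.35 ± 0.14 (SE, adjusted p = 0.37), with -0.14 ± 0.13 (SE) in males (adjusted p = 0.73). The muscle forms Hspb2, Hspb3, Hspb6, Hspb7 and Hspb8 gave values between -0.11 and 0.19 in females and between -0.28 and 0.07 in males. None of the 10 probes of the class passed in either sex.

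Among the DnaJ genes, the 4 members of class A all had positive values in females and negative ones in males, and Dnaja1 was the 1 that passed. Dnaja2, Dnaja3 and Dnaja4 gave 0.20, 0.09 and 0.16 in females. In class B, 6 of 8 tested genes were positive in females and 2 of 8 in males (4 and 3 under quantile normalization). In class C, the largest and most varied group, 18 of 26 genes were positive in females and 5 of 26 in males (14 and 8 under quantile normalization), and none of 42 probes passed in either sex. Dnajb13, a DnaJ protein of sperm and motile cilia, and Dnajb7 were well above background on 0 arrays. Dnajc5g, a testis relative of the cysteine string protein, was above it on 2 arrays.

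**Figure D4:**
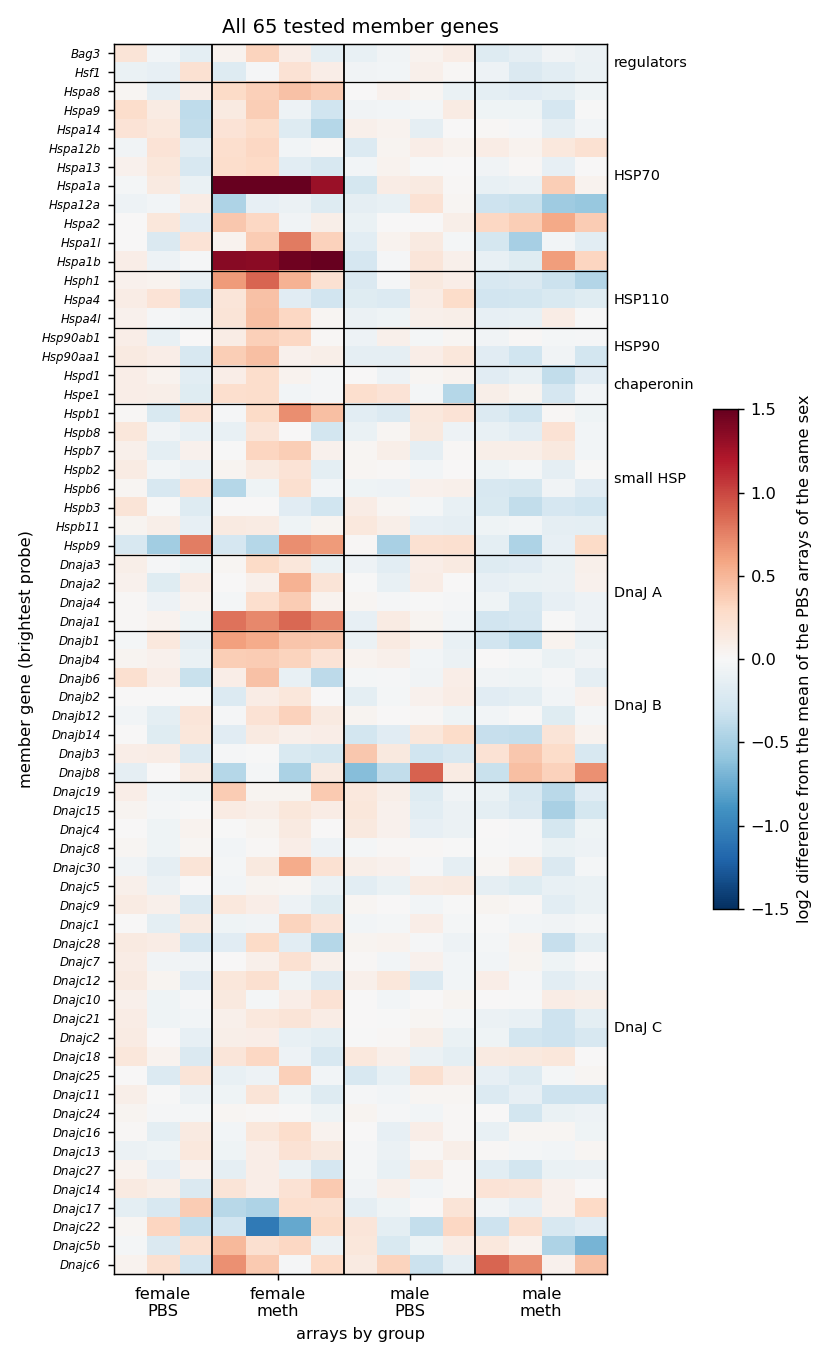
Level of each of the 65 tested member genes (rows, by class) on each array (columns, by group), as the log2 difference from the mean of the PBS arrays of the same sex, with colours saturating at 1.5 in either direction. The rows of Hspa1a, Hspa1b, Dnaja1 and Dnajb1 are red across all 4 female meth arrays and not across the male meth arrays.

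Over the 12 members known as core HSF1 targets, all 12 had a positive value in females, with a median of 0.36 (11 of 12 under quantile normalization and under normexp), and 3 passed by their brightest probe. Of all probes, 50.2% were positive and 0.758% passed in females. In males 2 of 12 were positive, with a median of -0.13 (4 of 12 and -0.07 under quantile normalization), and none of 20 probes passed. The male value was below the female value for 12 of 12, also under median centring, quantile normalization and normexp, with a median difference of -0.49. Of all probes, 47.3% had a positive male minus female value. This share was 31.1% under median centring, 46.6% under quantile normalization and 28.8% under normexp. The list includes the genes called in females above, so its counts describe it and test nothing. The 7 mitochondrial members had a median of 0.10 in females and -0.21 in males, and none passed. In females this median was 0.04 under quantile normalization, 0.05 under normexp and 0.17 under median centring, and in males it was -0.11 under quantile normalization.

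**Figure D5:**
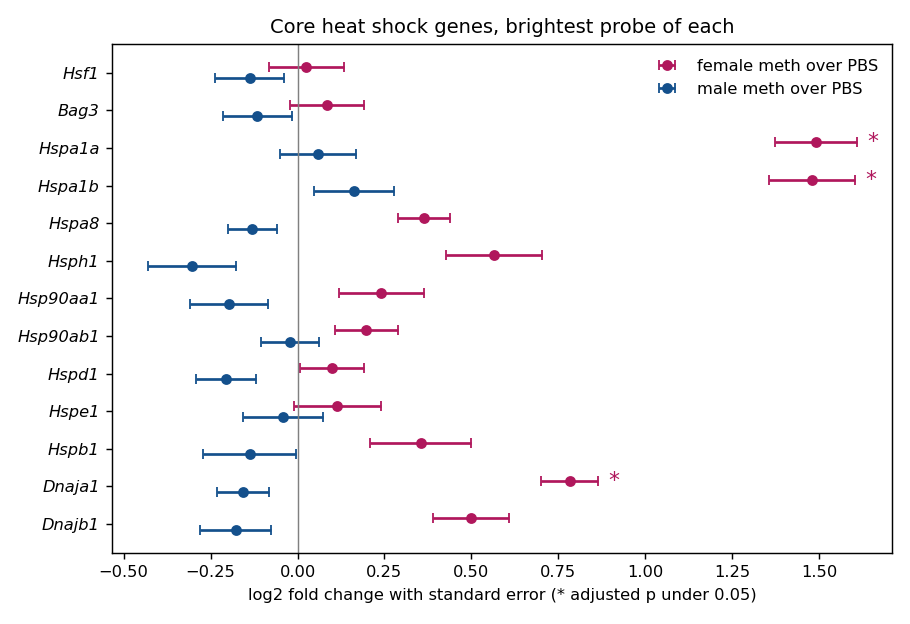
Log2 fold change with meth of 13 core genes in females (red) and males (blue), with the standard error from the limma fit and an asterisk where the adjusted p is under 0.05. Every female value lies to the right of the male value of the same gene, with a male minus female value of -1.43 for Hspa1a and of -0.16 for Hspe1 and Hsf1, and asterisks stand only at the female values of Hspa1a, Hspa1b and Dnaja1.

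Few other genes of the chaperone pathway passed the test. Of 22 cofactors of HSP70 and HSP90 that were tested, 19 had a positive value in females and 4 in males (14 and 7 under quantile normalization). Of their 38 probes, 1 passed in females (against 0.758% of all probes) and over both sexes, higher with meth, and none passed in males. It was a dimmer probe of Fkbp5, an HSP90-bound immunophilin induced by glucocorticoids. The brightest Fkbp5 probe gave the larger change in males, 0.48 ± 0.14 (SE), with 0.11 ± 0.15 (SE) in females. It passed in neither sex (limma, adjusted p = 0.14 and 0.88). The 8 subunits of the cytosolic chaperonin CCT lay between -0.06 and 0.12 in females and between -0.12 and 0.04 in males, and none passed. Cirbp and Rbm3, which rise in the cold, gave -0.01 and 0.18 in females and 0.23 and 0.20 in males and did not pass.

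Between male and female PBS hearts no member probe passed, against 0.48% of all probes, and 12 of 106 (11.3%) had an unadjusted p under 0.05 by limma, against 15.2% of all probes. Hspa1a gave a male minus female difference of -0.14 ± 0.13 (SE, adjusted p = 0.64). The members first in order were Dnajc15, at 0.24 ± 0.08 (SE, adjusted p = 0.18), and Dnajb3, at 0.44 ± 0.15 (SE, adjusted p = 0.21). Dnajc7, Dnajc21, Dnaja3 and Dnajc16 lay between 0.22 and 0.25 and Dnajb8 and Hspa1b at -0.65 and -0.33, and none of these passed (adjusted p = 0.21 to 0.31).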

How the data were processed

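Whole-heart RNA of 15 mice was hybridised to 1-colour Agilent 4x44K arrays. The deposited values used were Feature Extraction processed intensities, background-subtracted by the authors' software (version 9.1 in the submitters' processing notes, another in the file headers). The series' value table holds the authors' log2 values of the same signals and served as an alternative. Outlier spots were set missing, spots of a probe averaged, and log2 intensities centred on the 75th percentile of each array. A probe was kept if its signal was well above background on 3 or more of the 15 arrays. No array was saturated at a non-control probe or identical to another. Groups came from the labels, and each array was 1 mouse.

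Groups were compared in limma 3.58.1 (R 4.3.3), with trial as a covariate, Benjamini-Hochberg adjustment over all 28358 probes and a threshold of 0.05. The fit was tested on simulated data with independent noise on each array. That setting held no slide, trial or pair effects, so it cannot show how the fit deals with them. Array number limits the precision. Probes were named by accession through RefSeq, which named 27188 of 41174 probes, 289 of them only through the later annotation of slide 4. Genes with several probes are given by the brightest. Named were all called members, the first 8 by p in each comparison, the core targets and Hsf1. The members and lists were chosen with earlier results of these data known. One list of further pathway genes is not reported here.

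Same-numbered meth and PBS arrays shared a slide, and the number was taken to pair them. Their deviations from the group means correlated in all 7 pairs, from 0.257 to 0.664 over 23808 probes. The group means were taken over slides and trials, so arrays of 1 slide or trial can correlate whatever their number. Differently numbered arrays were not compared, so the correlations cannot show that the mice were paired. Alternatives covered scaling, background correction, filters, trial, slide and replicate blocks, left-out arrays, and the methods' t-test. Plots used Python 3.11.15 and matplotlib 3.10.9.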

Additional observations from a re-analysis of the deposited data

Results flagged for a closer look

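The response to meth differed between males and females, by limma's test of the male minus the female log2 fold change, for 6 probes of 3 genes. The values were -1.43 and -1.58 for the Hspa1a probes, -1.32 for Hspa1b, and -0.80, -0.94 and -1.01 for the Dnaja1 probes (adjusted p = 0.0030 to 0.020). None of the 6 probes passed with the replicate block (adjusted p = 0.0502 to 0.077) or without slide 4. In each case all 4 female meth hearts lay above all 3 female PBS hearts and the male groups overlapped, except that for the Dnaja1 probe at -0.80 all male meth hearts lay below the male PBS hearts. The 6 probes were picked by a test on these same arrays, so this separation is no separate support. The share of all probes that separate in this way was not counted.

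The level of Hspa8 in the second male meth heart of trial 2 was 6.52, apart from the other 3 male meth hearts at 6.41 to 6.43. This was 1 of 84 groups examined, of which chance would mark about 4.2.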

How the results depend on the processing

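Of 1976 values of single genes recomputed under the alternatives, 1897 kept their sign and their side of the threshold, 20 lost significance, 39 gained it and 20 changed sign. Most of these values had not passed at first. Some alternatives also cannot move a log2 fold change, such as a left-out female array for a male change. The called sex difference was lost in 3 of 29 alternatives for Hspa1a and in 4 of 29 each for Hspa1b and Dnaja1. The male count of 2 member probes became 0 with normexp, without the filter, without the trial term, with trial 1 arrays only, with the replicate block and by the methods' t-test, paired or unpaired, and 5 with the slide as a block. It was 0 to 2 when single arrays were left out. With the replicate block 17% of member probes and 18.2% of all probes had an unadjusted p under 0.05 by limma in males. The female count of 7 became 11 with the slide as a block and 0 by either t-test after adjustment (before it, at the methods' threshold, 17 or 16% paired and 15 or 14.2% unpaired, against 9.93% and 8.29% of all probes; in males 19 or 17.9% and 23 or 21.7%, against 15.2% and 13.3%), and 6 to 7 without single arrays. The count over both sexes, 8, became 3 with normexp and 3 with trial 1 arrays only. The count for the difference between the sexes, 6, became 3 with normexp, 1 with trial 1 arrays only, and 0 with the replicate block or without slide 4 (30 members, 28.3%, at an unadjusted p under 0.05 by limma in each, against 14.7% and 10.4% of all probes), and 5 to 7 without single arrays. Over both sexes the replicate block kept 6 of the 8 member probes and gave 8 in all, and its other changes of call stand with the results. Over all probes, normexp gave 53 calls in males, 27 in females and 14 for the difference, against 314, 215 and 39.

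The changes of sign were as follows, in values that had not passed. In males they were Hspe1 (0.017) and Hsp90ab1 (0.050) with quantile normalization, and Hspa1a (-0.023) and Hspa1b (-0.016) with trial 1 arrays only, and Hspa1b (-0.011) averaged over its probes. Without single arrays Hspa1a ran from -0.022 to 0.15, Hspe1 from -0.147 to 0.014 and Hsp90ab1 from -0.053 to 0.0076. In females they were Hspd1 (-0.0015) with quantile normalization, Bag3 (-0.0058) with normexp, and Hsf1 with quantile normalization (-0.014), normexp (-0.174), trial from the source name (-0.0022) and the slide block (-0.024), and from -0.039 to 0.140 without single arrays. With normexp the sex difference of Hsf1 was 0.041, and Dnajb8 between PBS hearts was 0.065, from -0.65. The cause was not tested. Few arrays per group and dim probes such as Dnajc6 limit what could be detected.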
